A study of Mus musculus with 14 samples.

Results

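The small RNA pathway genes described here are 10 genes of RNA interference and of the piRNA pathway, out of 24064 genes in the count table: Dicer1, Drosha, Dgcr8, Tarbp2, Ago2, Piwil2, Mael, Ddx4, Mov10l1 and Tdrkh. They were taken by name, as genes that act in the restraint of transposons in the germline. Their measured values were not used for this, though earlier results of these data were known. The study deleted Kdm1a, the gene of the histone H3 lysine demethylase LSD1/KDM1A, from mouse oocytes and sequenced the poly(A)-primed cDNA of single oocytes. The control oocytes were 4 wt/wt oocytes of strain C57BL/6J, called wt1, wt3, wt4 and wt5 here, and 1 f/f oocyte, C3, of the mixed B6;129 strain, which carries both floxed Kdm1a alleles and no Cre. The 5 mutant oocytes, labelled mko/mko and called D1, D2, D3, D4 and D7, are also mixed B6;129 and carry the floxed alleles with Cre driven by the Zp3 promoter, which is active in growing oocytes and removes the first exon of Kdm1a. The labels give no age for the donor females and do not say which oocytes came from the same female, so the p-values below measure the spread between these oocytes. Strain separates wt/wt oocytes from all others, and its effect cannot be told apart from that of the floxed allele. As 4 of the 5 control oocytes are wt/wt, the comparison of mutant with control oocytes also largely compares the 2 strains. The part of strain in the differences below was not tested.

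In RNA interference, the RNase III enzyme DICER1 cuts double-stranded RNA and microRNA precursors into small RNAs that an Argonaute protein such as AGO2 carries to matching transcripts, while DROSHA and DGCR8 perform the earlier, nuclear cut of microRNA precursors. In the piRNA pathway, PIWI proteins such as PIWIL2 carry small RNAs that match transposons, and the helicases DDX4 and MOV10L1, the Tudor protein TDRKH and MAEL help to make or use them. Mouse oocytes are known for abundant small interfering RNAs and for a shortened DICER1 that starts from a retrotransposon promoter within the gene, which counts per gene cannot separate from the full-length form.

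Sequences around the start of the members were read for motifs, which the choice of genes did not use. Promoter windows from RefSeq on GRCm38.p6, which reach from 250 bases before to 50 bases after the annotated start, matched 8 of the 10 genes. The palindromic E-box CACGTG, read identically on both strands, was found in the windows of Mael, Ddx4 and Mov10l1 and in 7.15% of 32851 windows of all genes. The window of Tdrkh, also a piRNA gene, did not hold it, nor did those of Dicer1, Drosha, Dgcr8 and Tarbp2, and no window was matched for Piwil2 and Ago2. The 3 windows are shown because they hold this motif, 5′ to 3′ on the strand of the gene, with capitals for CACGTG, for the GC box GGGCGG on either strand and, in Ddx4, for the E2F motif TTCCCGC on either strand, which there overlaps a GC box.
Ddx4, chr13:112652261-112652560, minus strand: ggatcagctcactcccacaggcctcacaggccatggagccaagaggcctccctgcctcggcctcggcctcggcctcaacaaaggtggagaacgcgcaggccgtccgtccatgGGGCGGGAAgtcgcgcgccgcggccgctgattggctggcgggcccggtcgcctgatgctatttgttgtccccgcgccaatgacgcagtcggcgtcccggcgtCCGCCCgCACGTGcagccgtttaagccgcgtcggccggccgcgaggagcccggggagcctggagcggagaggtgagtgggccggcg
Mael, chr1:166238695-166238994, minus strand: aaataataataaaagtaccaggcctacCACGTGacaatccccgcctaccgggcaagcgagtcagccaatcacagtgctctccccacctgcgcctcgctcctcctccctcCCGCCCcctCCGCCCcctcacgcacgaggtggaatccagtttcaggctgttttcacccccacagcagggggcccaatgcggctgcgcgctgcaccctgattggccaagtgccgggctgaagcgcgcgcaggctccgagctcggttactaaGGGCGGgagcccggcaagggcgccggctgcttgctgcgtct
Mov10l1, chr15:88982744-88983043, plus strand: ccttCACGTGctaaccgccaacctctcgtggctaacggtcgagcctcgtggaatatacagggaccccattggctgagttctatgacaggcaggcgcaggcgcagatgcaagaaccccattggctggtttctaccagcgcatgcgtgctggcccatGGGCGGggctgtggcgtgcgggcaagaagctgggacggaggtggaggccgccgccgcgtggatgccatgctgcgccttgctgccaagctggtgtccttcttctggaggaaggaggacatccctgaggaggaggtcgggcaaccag
The Ddx4 and Mov10l1 windows lie at start sites downstream of the outermost annotated ones. The E2F motif also occurred in the Tarbp2 window and in 4.6% of all windows, the GC box in 35.7% of all windows, and the motif TATAAA in 13.6% of all windows and in none of the 8. The Dicer1 window at the canonical start held 49 CpG dinucleotides, against a median of 7 over all windows, and 99.0% of windows held fewer. The Ddx4 window held 38, that of Mael 24 and that of Mov10l1 20. A match is a description of these letters and not evidence of binding.

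Counts of the oocytes summed to 1375187 to 6928548, and C3 and D4 were the deepest with 6928548 and 6926076. Pairs of libraries carry the same oocyte name for C3, D3, D4 and D7, and their counts were summed. For 1 library of C3, the table's column and the sample's label write the characters of the name in different order, and they were taken as the same library. Levels are given as raw counts or as CPM, the share of the library size scaled in the usual way, with library sizes adjusted by the trimmed mean of M values (TMM), in which 3 counts stood for 0.456 CPM in D4 to 1.83 CPM in D2. All 10 oocyte markers had counts, with summed levels of 19622 to 56051 CPM in control and 47502 to 110677 CPM in mutant oocytes, and 5 of 6 blood cell markers were at 0. Oocyte markers themselves differed between the groups. Gdf9 averaged 15208 CPM in control and 46497 CPM in mutant oocytes, Zp2 61.5 and 1656 CPM, and Figla 0.259 and 19.6 CPM. Only Oosp1 had a lower mean in mutant oocytes, at 8144 and 6649 CPM. Of 16 cumulus and granulosa cell markers, 8 were at 0 (Amh, Fshr, Foxl2, Inha, Inhba, Ptx3, Tnfaip6 and Lhcgr), and the summed level of the list was 18.8 to 67.4 CPM in control and 84.1 to 150 CPM in mutant oocytes. Within the list, Cyp19a1 averaged 37.8 CPM in control and 106 CPM in mutant oocytes, whereas Nr5a2 averaged 8.13 and 2.71 CPM and Has2 2.08 and 0.122 CPM. The part of these markers in the differences below was not tested. Kdm1a itself was at 149 CPM in C3 and averaged 26.0 ± 12.7 CPM (SD, n = 4) in wt/wt and 1.62 ± 1.97 CPM (SD, n = 5) in mutant oocytes.

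Mutant and control oocytes were compared to ask whether transcripts of the small RNA machinery differ in oocytes that lack Kdm1a. Piwil2 rose in mutant oocytes, and none of the other members passed the test in either direction. Testing used the quasi-likelihood F-test of edgeR over 9198 genes, with p-values adjusted by the Benjamini-Hochberg method. To be called, a gene had to have an adjusted p below 0.05 and to differ by at least 1 on the log2 scale. Of the 10 members, 9 had enough counts to be tested and 1 was called, against 25.9% of all tested genes (14.7% higher and 11.2% lower). Piwil2 passed the filter of more than 34 counts through its mutant oocytes, so the 1 call is given as a description. It was also the member whose groups did not overlap, against 16.2% of all genes. The members' median log2 fold change was 0.38, beside 0.17 for all genes tested.

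**Figure D1:**
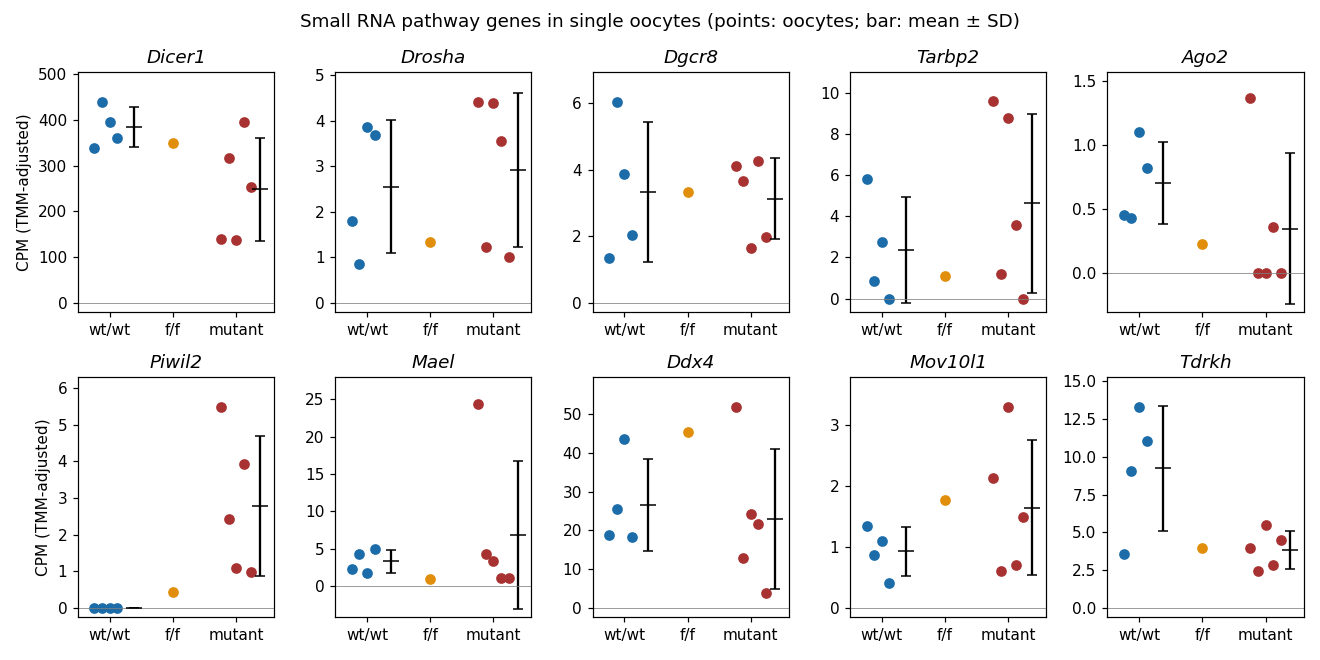
Level of each member in CPM (vertical axis, linear, a separate scale for each gene) in the wt/wt, f/f and mutant oocytes, 1 point per oocyte, with the mean ± SD of the 4 wt/wt and of the 5 mutant oocytes. Piwil2 is at 0 in the wt/wt oocytes and between 0.997 and 5.48 CPM in the mutant oocytes, D4 stands alone for Mael, and the groups overlap for Dicer1.

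Dicer1, on chromosome 12 from 104687742 to 104751952 on the minus strand of GRCm38, dominated the members' counts. It took 84.7% to 90.5% of the counts of the 10 members in wt/wt oocytes, 85.7% in C3 and 56.7% to 94.4% in mutant oocytes, with the lowest share in D4. Its level was 395, 439, 361 and 339 CPM in wt1, wt3, wt4 and wt5, 351 CPM in C3, and 137, 317, 396, 140 and 254 CPM in D1, D2, D3, D4 and D7. The control oocytes thus lay close together, whereas 4 of the 5 mutant oocytes lay below all of them and D3 lay among them. The mean was 377 ± 40.6 CPM (SD, n = 5) in control and 249 ± 113 CPM (SD, n = 5) in mutant oocytes, a coefficient of variation of 0.11 against 0.45. The log2 fold change was -0.60 (standard error, SE, 0.35) and was not called, with an adjusted p of 0.22 from edgeR.

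The call for Dicer1 depended on how the libraries were scaled. With library totals in place of the TMM factors, the log2 fold change was -1.07, with an adjusted p of 0.043 from edgeR, and Dicer1 was called lower. Under that scaling the median over all genes was -0.23 in place of 0.17 on the log2 scale, and the test called 28.6% of them. Relative to the median of all genes, Dicer1 lay below it under both scalings. Both libraries of D4 held low levels of Dicer1, at 138 and 120 CPM, and those of D3 higher ones, at 424 and 302 CPM. The 2 libraries of D7 held 233 and 225 CPM and those of C3 386 and 290 CPM, while D1 and D2 have 1 library each.

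Drosha and Dgcr8, the enzyme and the RNA-binding partner of the nuclear microRNA processing complex, were low in all oocytes. Drosha (chromosome 15, 12824815 to 12935291, plus strand) had 7, 2, 9 and 4 counts in wt1, wt3, wt4 and wt5, 6 in C3, and 8, 2, 10, 29 and 2 in D1, D2, D3, D4 and D7. Dgcr8 (chromosome 16, 18253948 to 18289246, minus strand) had 7, 14, 5 and 3 counts in the wt/wt oocytes, 15 in C3, and 3, 6, 12, 27 and 4 in the mutant oocytes. Neither gene separated the groups, and D4, 1 of the deepest oocytes, had the highest count of both. In CPM, Drosha averaged 2.31 ± 1.38 (SD, n = 5) in control and 2.91 ± 1.69 (SD, n = 5) in mutant oocytes. Dgcr8 averaged 3.33 ± 1.82 CPM (SD, n = 5) and 3.13 ± 1.23 CPM (SD, n = 5). Their log2 fold changes were 0.38 (SE 0.72) and -0.06 (SE 0.64), with adjusted p of 0.73 and 0.95 from edgeR. Dgcr8 overlaps the protein-coding Gm49776 on the same strand and Trmt2a on the opposite strand, and the strand setting of the counting is not given in the sources used here.

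Tarbp2 (chromosome 15, 102518192 to 102523676, plus strand) encodes a double-stranded RNA-binding partner of DICER1. It had 5, 2, 0 and 13 counts in the wt/wt oocytes, 5 in C3, and 16, 2, 10, 63 and 0 in D1, D2, D3, D4 and D7. The highest levels, 9.58 and 8.78 CPM, were in the mutant oocytes D4 and D1, but D7 had no count, like wt4. Its mean was 2.11 ± 2.31 CPM (SD, n = 5) in control and 4.63 ± 4.36 CPM (SD, n = 5) in mutant oocytes, and its log2 fold change of 1.18 (SE 0.97, edgeR adjusted p = 0.39) was not called. It was 2.02 without wt5 and 0.19 with counts thinned to the smallest total, and was called in neither.

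Ago2, the Argonaute that can cut its target RNA, was barely counted. It lies on chromosome 15 from 73095844 to 73184935 on the minus strand. It had 2, 1, 2 and 1 counts in the wt/wt oocytes, 1 in C3, and 0, 0, 1, 9 and 0 in the mutant oocytes, 17 in all, which was below the filter of the test. All 5 control oocytes had a count, and 3 of 5 mutant oocytes had none. The pooled level was 0.526 CPM in control and 0.673 CPM in mutant oocytes, a ratio of 1.28 with a 95% counting interval of 0.440 to 3.96. Without D4 the mutant oocytes pooled 1 count and the ratio was 0.230 (0.00509 to 1.79). No difference of Ago2 was detectable at this depth. These intervals cover counting error only. The RefSeq gene model on GRCm38.p6 ends 5781 bases short of the 3′ end that GENCODE gives Ago2, whereas those of the other members end within 186 bases of it. The cDNA method covers the 3′ part of transcripts, and the part of the gene model in the low count was not tested. Ago2 also overlaps Chrac1 on the opposite strand.

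The other Argonaute genes were compared with Ago2 per kilobase of the longest coding transcript, a length chosen after the data were seen because the median coding transcript of Ago3 has 682 bases and the longest 15595. In control oocytes Ago3 had 3.06 ± 1.06 CPM per kb (SD, n = 5), whereas Ago1 had 0.0558 ± 0.108, Ago2 0.0438 ± 0.0255 and Ago4 0.0855 ± 0.149 CPM per kb (SD, n = 5 each). Ago3 lay above the other 3 in every oocyte, and those 3 did not differ beyond their spread. In mutant oocytes Ago3 had 2.30 ± 0.98 CPM per kb (SD, n = 5). The Ago3 model in RefSeq reaches beyond the 3′ end in GENCODE, and with the median length its control level was 70.0 ± 24.2 CPM per kb (SD, n = 5), so the order of Ago3 above the other 3 held with both lengths but its size, and its place against Dicer1, did not.

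**Figure D2:**
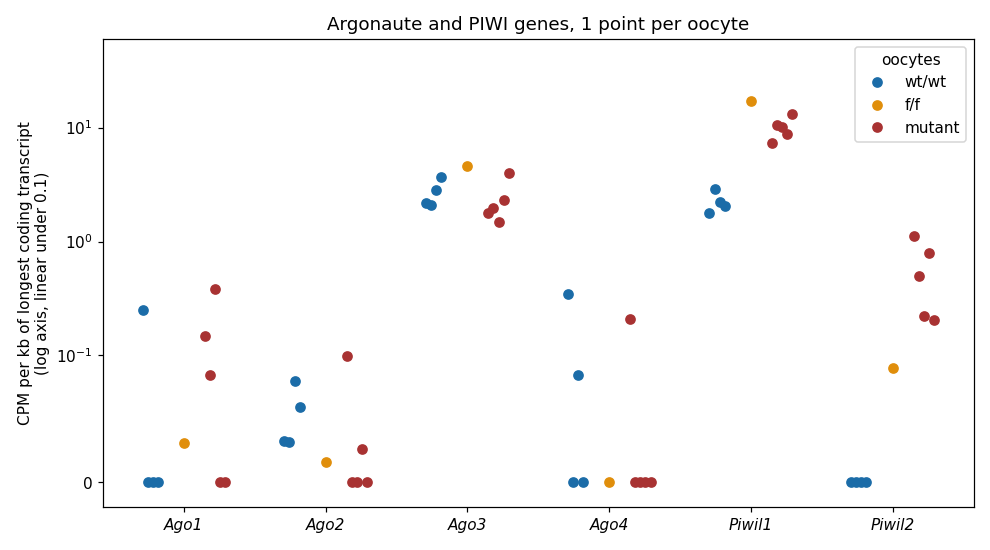
Level per kilobase of the longest coding transcript (vertical axis, log scale that is linear under 0.1 CPM per kb) of the Argonaute genes Ago1 to Ago4 and the PIWI genes Piwil1 and Piwil2, 1 point per oocyte. Ago3 and Piwil1 lie above the other genes of their family in every oocyte, and Piwil2 is at 0 in the 4 wt/wt oocytes.

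Piwil2, on chromosome 14 from 70372477 to 70429383 on the minus strand, encodes the PIWI protein MILI, which binds piRNAs in fetal and adult germ cells. It had 0 counts in each of wt1, wt3, wt4 and wt5, 2 in C3, and 2, 4, 11, 36 and 2 in D1, D2, D3, D4 and D7. In CPM this was 0.444 in C3 and 1.10, 2.44, 3.92, 5.48 and 0.997 in the mutant oocytes, so that every mutant oocyte lay above every control oocyte and C3 lay above the wt/wt oocytes. The log2 fold change was 4.07 (SE 1.06), with an adjusted p of 0.012 from edgeR, and it depends on the small counts given here. Pooled over oocytes, 55 counts in mutant against 2 in control oocytes gave a ratio of 24.6 with a 95% counting interval of 6.50 to 209. D4 held 36 of the 55 counts, and without it the ratio was 15.3 (3.68 to 135). The wt/wt oocytes had no count, and the pooled mutant level was 10.9-fold a floor of 3 counts over them. Without D4 it was 6.73-fold that floor. These 2 values are no bounds, as the lower 95% counting limits of the mutant over wt/wt ratio were 8.54, and 4.96 without D4. The intervals and limits for Piwil2 cover counting error only and not the spread between oocytes. They also describe a gene that passed the filter through its mutant oocytes.

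With each oocyte left out in turn, the log2 fold change of Piwil2 was 3.60 (without D4) to 5.95 (without C3). The genes tested were kept as chosen with all oocytes, and without D4 the 19 mutant and 2 control counts of Piwil2 would not have passed the filter, so these values are descriptions and not support. The value without C3 is set against oocytes with no count, so it depends on the small count added in the fit and is no bound. With wt/wt oocytes alone as control, when 31.6% of all genes were called, the adjusted p was 0.0073 from edgeR. With C3 alone as control, the log2 fold change was 2.62 and was not called (edgeR adjusted p = 0.38), in a fit with 1 control oocyte that called 0.0435% of all genes and so says little about any gene. Both libraries of D3 held Piwil2 counts (8 and 3), as did both of D4 (16 and 20), whereas the 2 counts of D7 and of C3 each came from 1 library, which for C3 is the one whose name is spelled differently in the table.

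Piwil1, the other PIWI gene with counts above the filter, was far higher than Piwil2. Per kilobase of the longest coding transcript, Piwil1 had 5.20 ± 6.65 CPM (SD, n = 5) in control and 9.92 ± 2.14 CPM (SD, n = 5) in mutant oocytes, against 0.0181 ± 0.0404 and 0.566 ± 0.390 CPM for Piwil2. With the median length, Piwil1 was at 6.93 and 13.2 CPM per kb and Piwil2 at 0.0923 and 2.89. Piwil1 had 7.18 to 11.7 CPM in the wt/wt oocytes, 68.6 CPM in C3 and 29.4 to 52.4 CPM in the mutant oocytes. The f/f oocyte thus lay above all mutant oocytes, and the log2 fold change of 0.90 (SE 0.58, edgeR adjusted p = 0.26) was not called. Without C3 it was 2.14 and was called, with an edgeR adjusted p of 0.0012, and with C3 alone as control it was -0.76 and was not called.

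Ddx4 (chromosome 13, 112598333 to 112652475, minus strand), the germ cell helicase also known as mouse Vasa, was the piRNA member with the most counts. Its level was 43.7, 25.5, 18.4 and 18.8 CPM in wt1, wt3, wt4 and wt5, 45.3 CPM in C3, and 24.1, 12.8, 21.7, 51.7 and 3.99 CPM in D1, D2, D3, D4 and D7. The highest and the lowest oocyte were both mutant, and the groups overlapped. The means were 30.3 ± 13.2 CPM (SD, n = 5) in control and 22.9 ± 18.0 CPM (SD, n = 5) in mutant oocytes, and the log2 fold change was -0.39 (SE 0.53, edgeR adjusted p = 0.62). It was -0.95 without D4 and -0.11 without D7, and was called in neither.

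Mael, on chromosome 1 from 166201201 to 166238747 on the minus strand, encodes a protein needed for the silencing of LINE-1 elements in germ cells. It had 1.66, 4.32, 4.91 and 2.24 CPM in the wt/wt oocytes, 0.888 CPM in C3, and 3.29, 4.26, 1.07, 24.3 and 0.997 CPM in D1, D2, D3, D4 and D7. Apart from D4, the mutant oocytes lay within the range of the control oocytes. D4 held 160 of the 178 Mael counts of the mutant oocytes, 76 and 84 in its 2 libraries. The log2 fold change was 1.34 (SE 0.84, edgeR adjusted p = 0.25) with D4 and -0.24 without it.

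Mov10l1 (chromosome 15, 88982909 to 89055152, plus strand) encodes the RNA helicase that feeds precursors into piRNA production. It had 2, 2, 1 and 3 counts in the wt/wt oocytes, 8 in C3, and 6, 1, 2, 14 and 3 in the mutant oocytes. Its levels of 1.10 ± 0.51 CPM (SD, n = 5) in control and 1.65 ± 1.11 CPM (SD, n = 5) in mutant oocytes were near that of 3 counts, and no difference was detectable (log2 fold change 0.55, SE 0.80, edgeR adjusted p = 0.65).

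Tdrkh, on chromosome 3 from 94413273 to 94434668 on the plus strand, encodes a mitochondrial Tudor protein that helps to trim piRNAs. It had 13.3, 9.06, 11.0 and 3.59 CPM in wt1, wt3, wt4 and wt5, 4.00 CPM in C3, and 5.48, 2.44, 2.85, 3.95 and 4.49 CPM in D1, D2, D3, D4 and D7. Of the control oocytes, wt1, wt3 and wt4 lay above every mutant oocyte, while wt5 and C3 lay among them. The log2 fold change was -1.07 (SE 0.56) and was not called, with an adjusted p of 0.17 from edgeR, and with C3 alone as control it was -0.03. Tdrkh overlaps Oaz3 and the pseudogene Gm42464 on the opposite strand.

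**Figure D3:**
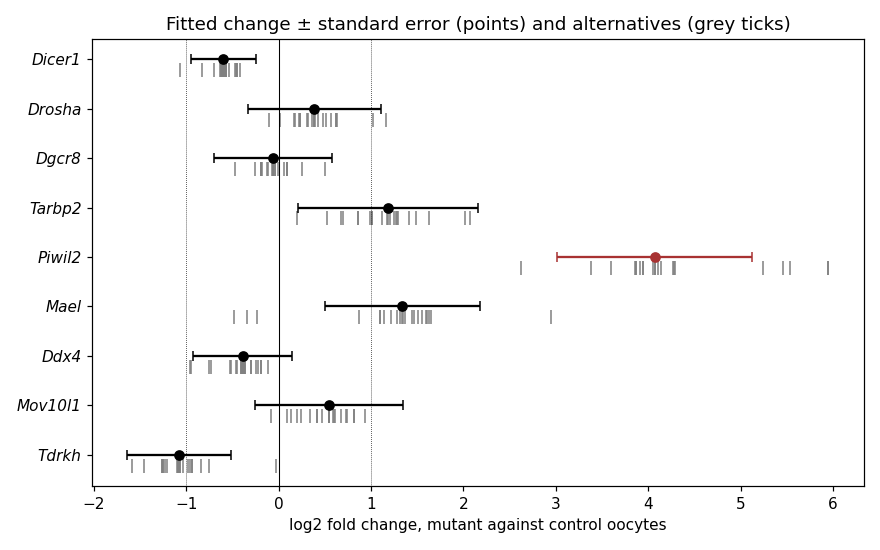
Log2 fold change, mutant over control (horizontal axis) for the 9 tested members, with points for the fitted value ± its standard error, a red point for the called gene, grey ticks for the value under each alternative and dotted lines at -1 and 1. Piwil2 lies above 2.6 under the 22 alternatives in which it was tested (filterByExpr removed it). This is a description, as Piwil2 passed the filter through its mutant oocytes. Mael, Dgcr8, Drosha and Mov10l1 have ticks on both sides of 0.

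Per length, the order of the members in control oocytes was led by Dicer1 and then Ddx4. Per kilobase of the median coding transcript, Dicer1 had 66.7 ± 7.18 CPM (SD, n = 5) and Ddx4 10.5 ± 4.58 CPM (SD, n = 5) in control oocytes, with no overlap between the 2 genes. The other 8 members had 0.0438 to 3.17 CPM per kb. Among them Tdrkh, Tarbp2, Mael and Dgcr8, at 3.17, 2.27, 1.73 and 1.31 CPM per kb, did not differ beyond their spread. Per kilobase of the longest coding transcript, Dicer1 had 38.3 ± 4.12 and Ddx4 10.1 ± 4.39 CPM (SD, n = 5 each), and they again led the members without overlap in control oocytes. In mutant oocytes Dicer1 had 44.0 ± 19.9 and Ddx4 7.92 ± 6.23 CPM per kb of the median transcript (SD, n = 5 each). In D4, Dicer1 exceeded Ddx4 with the median length, at 24.7 against 17.9 CPM per kb, but not with the longest, at 14.2 against 17.2 CPM per kb.

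Set against the lowest and highest wt/wt oocyte, C3 fell between them for Dicer1, Drosha, Dgcr8, Tarbp2 and Tdrkh, above both for Piwil2, Ddx4 and Mov10l1, and below both for Ago2 and Mael. Over the 10 oocytes, the log2 CPM of Dicer1 was most like that of Dgcr8 (Pearson r = 0.32) and least like that of Mov10l1 (r = -0.78). Tarbp2 and Mov10l1 were each other's closest member (r = 0.60). Piwil2 was closest to Tarbp2 (r = 0.40) and least like Tdrkh (r = -0.69). Drosha and Ddx4 were also closest to Tarbp2 (r = 0.56 and 0.55), Dgcr8 to Ddx4 (r = 0.41), Mael to Piwil2 (r = 0.36) and Tdrkh to Dicer1 (r = 0.24). These values are descriptions over 10 oocytes that share the group difference and the differences in depth.

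The other genes of these pathways were read from 4 lists. Of 83 genes listed, 60 were tested and 9 were called, 7 higher and 2 lower, which is 15% against the 25.9% of all genes. Of the RNA interference and microRNA genes other than the members, 22 of 28 were tested, 3 rose and 1 fell, with a median log2 fold change of 0.12. Of the other piRNA genes, 20 of 28 were tested, 2 rose and none fell (median 0.53). Of other genes that restrain retrotransposons, 13 of 22 were tested, 2 rose and 1 fell (median 0.20). With library totals, when the median of all genes was -0.23, the medians of these 3 lists were -0.24, 0.0079 and 0.021.

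Among partners of RNA interference, Tsn rose and Ddx5 fell without overlap of the groups. Tsn encodes translin, a subunit of the nuclease C3PO that takes part in loading of the RNA-induced silencing complex. Its level was 3.27 to 8.84 CPM in wt/wt oocytes, 22.4 CPM in C3 and 40.0 to 72.4 CPM in mutant oocytes, and its log2 fold change was 2.54 (SE 0.48, edgeR adjusted p = 0.0020). Without C3 it was 3.19, and with C3 alone as control it was 1.34. Ddx5 encodes an RNA helicase associated with DROSHA. Its level was 278 to 348 CPM in wt/wt oocytes, 483 CPM in C3 and 108 to 165 CPM in mutant oocytes, and its log2 fold change was -1.39 (SE 0.31, edgeR adjusted p = 0.0049). The C3PO partner Tsnax had a log2 fold change of 0.45 (SE 0.49) and was not called. Hsp90aa1 and Hsp90ab1, which encode chaperones used in the loading of Argonaute proteins, were called higher at log2 fold changes of 2.84 and 1.38. Hsp90aa1 had 1649 CPM in D4 and 35.9 to 143 CPM in the other mutant oocytes, and without D4 its log2 fold change was 0.46 and the call was lost. Without wt3, wt4 or wt5 it was 2.61 to 2.76 and the adjusted p from edgeR was 0.059 to 0.073. Hsp90ab1 had 257 to 475 CPM in wt/wt oocytes, 1088 CPM in C3 and 741 to 3134 CPM in mutant oocytes. C3 thus lay within the range of the mutant oocytes, and with C3 alone as control the log2 fold change was 0.40. Hsp90ab1 lost its call without D1, with a log2 fold change of 0.85. The call was also lost without wt1, wt3, wt4, wt5 or D2, with log2 fold changes of 1.20 to 1.36.

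Among partners of the piRNA pathway, Stk31 and Tdrd5 rose. Stk31 encodes a Tudor domain protein of germ cells. It had 0.818 to 6.08 CPM in wt/wt oocytes, 9.10 CPM in C3 and 18.3 to 110 CPM in mutant oocytes, and its log2 fold change was 3.57 (SE 0.68, edgeR adjusted p = 0.0019). Without C3 it was 4.21, and with C3 alone as control it was 2.44. Tdrd5, a Tudor gene known for its part in LINE-1 silencing in the male germline, had 18.6 to 20.2 CPM in wt/wt oocytes, 60.8 CPM in C3 and 29.2 to 231 CPM in mutant oocytes. Its log2 fold change of 1.65 had an adjusted p of 0.045 from edgeR, and without D4 it was 0.86 and not called. Tdrd5 also lost its call without wt1, wt3, wt4, wt5 or D1, with log2 fold changes of 1.53 to 1.59.

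Among other genes that act on retrotransposons, Morc1 and Mphosph8 rose and Hells fell. Morc1 encodes an ATPase that represses transposons in the male germline, and had 0 to 7.18 CPM in wt/wt oocytes, 0.888 CPM in C3 and 13.0 to 49.4 CPM in mutant oocytes (log2 fold change 3.13, SE 0.74, edgeR adjusted p = 0.0069, and 3.75 without wt1). Like Piwil2, Morc1 passed the filter through its mutant oocytes, so its call is a description. Mphosph8 encodes a subunit of the HUSH silencing complex and had 5.61 to 13.3 CPM in wt/wt oocytes, 55.7 CPM in C3 and 44.4 to 345 CPM in mutant oocytes (log2 fold change 2.93, SE 0.72, edgeR adjusted p = 0.0085). For Mphosph8, C3 lay within the range of the mutant oocytes, and the log2 fold change was 4.09 without C3, 2.22 without D4 and 1.30, not called, with C3 alone as control. Hells encodes a chromatin remodeller needed for DNA methylation of repeats, and its log2 fold change was -1.32 (SE 0.39, edgeR adjusted p = 0.020), from 87.5 ± 35.0 CPM (SD, n = 5) in control to 35.0 ± 10.2 CPM (SD, n = 5) in mutant oocytes. The call for Hells was lost without wt1, wt4 or D1, with log2 fold changes of -1.25 to -1.19 and adjusted p of 0.051 to 0.055 from edgeR.

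**Figure D4:**
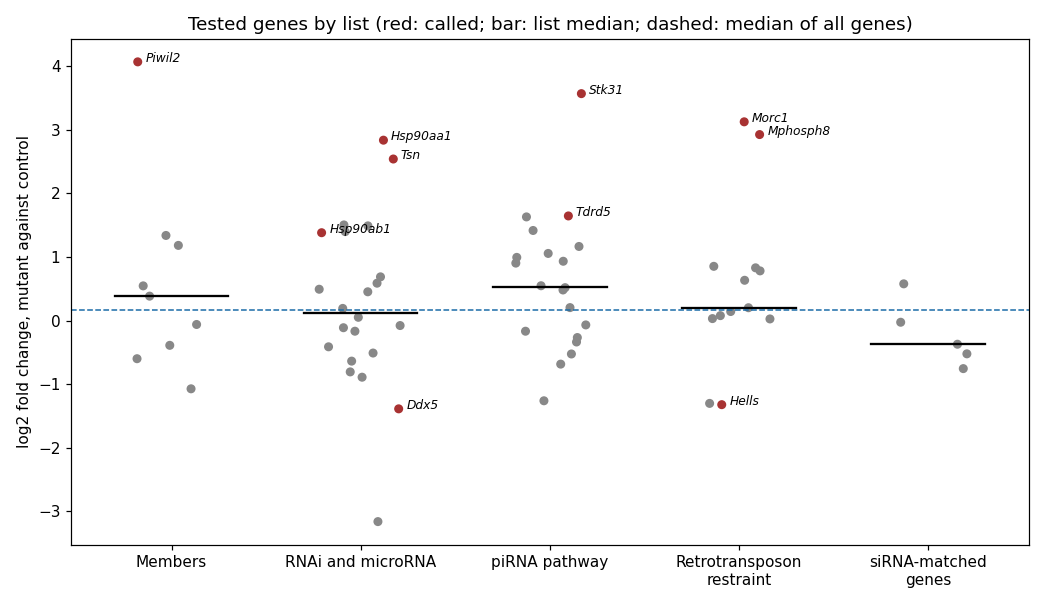
Log2 fold change, mutant over control (vertical axis) for every tested member and for the tested genes of the 4 other lists, 1 point per gene, red where called, with a bar at each median and a dashed line at the median of all genes, 0.17. Of the 69 genes drawn, 10 are called, and they are 8 higher and 2 lower.

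Small interfering RNAs of mouse oocytes are known to match certain protein-coding genes through pseudogenes, and 5 such genes were read as a list. None of Ppp4r1, Rangap1, Pdzd11, Kif4 and Hdac1 was called by edgeR, beside 25.9% of all genes tested, at an unadjusted p of 0.13, 0.48, 0.69, 0.95 and 0.50. Their log2 fold changes were -0.76, 0.58, -0.37, -0.03 and -0.52, with SE of 0.47, 0.79, 0.92, 0.38 and 0.76. A list of 5 genes with errors of this size cannot show that they did not change. The median was -0.37, and it was -0.91 with library totals and 1.54 with C3 alone as control. Kif4 was the highest of them in counts, at 158 ± 71.3 CPM (SD, n = 5) in control and 155 ± 39.4 CPM (SD, n = 5) in mutant oocytes. The groups of all 5 genes overlapped, while those of 16.2% of all genes did not.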

How the data were processed

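RNA-seq counts from 14 libraries of single mouse oocytes were used. The deposited values are raw counts for RefSeq genes, made by the authors from reads aligned to mm10, and the submitters' processing notes name TopHat2 2.0.6 and HTSeq 0.5.3p9. The files hold no normalization. Libraries that share an oocyte name were summed, although the labels number them as separate oocytes, giving 5 control and 5 mutant oocytes. Of 15432 genes with a count, the top 60% by total count were kept, 9198 genes with more than 34 counts. They were tested in R 4.3.3 with edgeR 4.0.16 (TMM, glmQLFit, glmQLFTest, Benjamini-Hochberg adjustment), with genotype as the one term, following the study's use of wt/wt and f/f oocytes as 1 control group. The code was tested on simulated data. Alternatives were DESeq2 1.42.0, other scalings, filters and call rules, other control oocytes, unsummed libraries, thinned counts, a replicate block and leaving out oocytes.

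Standard errors are the log2 fold change divided by the root of the F statistic. Correlations used log2 CPM with a prior count of 2. Gene coordinates and transcript lengths came from GENCODE annotation of GRCm38, and promoters from RefSeq. All members were named, and from the other lists the 3 higher and 3 lower called genes of smallest p and every gene matched by pseudogene-derived small interfering RNAs, with Kdm1a. Piwil1, the Argonaute genes and Tsnax were added with their values in view. The members and lists were chosen with earlier results of these data known. Libraries of two-cell embryos were not analysed here.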

Additional observations from a re-analysis of the deposited data

Results flagged for a closer look

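Oocytes far from the others of their group were looked for in 29 sets of 4 or 5 oocytes, of which chance would put about 1.45 past Dixon's 95% critical value, and 3 were past it. In the mutant oocytes, D4 stood apart for Mael, with 24.3 CPM against 4.26 CPM in the next oocyte, a gap of 0.860 of the range. D4 also stood apart for Ago2, with 1.37 CPM against 0.356 CPM, a gap of 0.740 of the range that rests on 9 counts. In the control oocytes, C3 stood apart for Piwil2, with 0.444 CPM against 0 in the 4 wt/wt oocytes, a gap of 1 of the range that rests on 2 counts. Where the other oocytes are all at 0, any count gives a gap of 1, so this one carries no information on how far C3 lies from them. C3 and D4 were the deepest oocytes, and the part of depth in these gaps was not tested.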

How the results depend on the processing

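The count of called members, 1 by edgeR, was 2 with library totals, which added Dicer1 lower. It was 0 with edgeR's filterByExpr, which left 2 members to test, without Piwil2, 0 with C3 alone as control, when 4 genes were called in all, and 0 with the replicate block, when 10.5% of all genes were called and Piwil2 had a log2 fold change of 5.53 with an edgeR adjusted p of 0.067. Without each oocyte in turn it was 1 throughout, Piwil2, which stayed in the test without D4 because the filter was not reapplied, and the share of all genes called was 17.7% (without D1) to 31.6% (without C3). The count of other pathway genes called, 9, was 15 with every library as its own sample (31.4% of all genes called), 14 with wt/wt oocytes alone (31.6%), 0 with C3 alone and 5 with the replicate block, and 5 (without wt4, 18.5%) to 14 (without C3, 31.6%) when 1 oocyte was left out. At an unadjusted p under 0.05, edgeR found 0 members with filterByExpr, which called 30.5% of 6022 genes, and 1 with the replicate block. The share of all genes at that unadjusted p was not counted, so these are descriptions. Among members that were not called, the log2 fold change of Drosha was -0.10 with library totals and that of Mov10l1 -0.077 with C3 alone. That of Mael was -0.24 without D4, -0.35 with the replicate block and -0.49 without C3 and D4, a setting added after the data were seen. That of Dgcr8 was 0.086 with every library as its own sample, 0.060 with only the libraries without the suffix DNA, 0.26 without wt3, 0.09 without D1, 0.09 without D7 and 0.51 with the replicate block. With 1 oocyte left out, that of Dgcr8 ranged from -0.26 to 0.26 and that of Mael from -0.24 to 1.64. The cause of these changes was not tested. Libraries with the same number in the 2 groups had correlations of 0.072, 0.101 and -0.093 of their deviations from the group means. The last 2 of these used libraries of D3. With no reference value, the check cannot tell whether the libraries of a pair share more than a number. Per kilobase of the median transcript, Dicer1 in control oocytes was at 66.7 CPM, at 126 with lengths capped at 3000 bases, 80.0 with library totals and 38.3 with the longest transcript, a length added after the data were seen, Ago2 at 0.0438 and 0.202 when capped, and Tdrkh at 3.17 and 1.44 with the longest transcript. Depth limits Drosha, Dgcr8, Tarbp2, Ago2, Piwil2, Mael, Mov10l1 and Tdrkh, most of whose values rest on fewer than 20 counts an oocyte.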
